A study of Mus musculus with 8 samples.

Results

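The genes described here are 34 genes of endothelial identity, cell junctions and angiogenesis, taken by symbol from a table of 30153 mouse genes. All 34 had a row in that table, and 33 of them were high enough to test, which took 1 TPM or more in 4 or more of the 8 libraries. In all, 10969 genes were high enough. The data are heart RNA from 8 libraries of aged C57/BL6 mice that all carry haplotype II of the human gene for the angiotensin II type 1 receptor, which mediates most actions of angiotensin II on vessels and heart. The labels place 4 libraries in the group Haplotype-II aged, called control here, and 4 in the group Haplotype-II aged plus western diet, called western diet here. Because both groups carry the transgene, no comparison with mice without it is made. The labels give no sex, exact age, promoter of the transgene or length of feeding, and leave unsaid whether the libraries of a group come from separate animals. The p-values therefore cover the spread between these samples, which may be technical. The measurement is TPM, a share of all transcripts in a library corrected for transcript length that keeps no read depth.

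Endothelial cells line every vessel and hold together through adherens junctions, built on VE-cadherin, and tight junctions, built on claudins, occludin and junctional adhesion molecules that bind scaffold proteins inside the cell. Their identity is set by transcription factors of the ETS and SOX families. Vascular endothelial growth factors, angiopoietins and Notch ligands act through receptors on these cells to guide vessel growth, and in heart much of the VEGF is made by the muscle cells. Claudin 5, encoded by Cldn5, is the claudin most characteristic of endothelium and is best known for sealing the vessels of the brain.

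The results turn on Cldn5, which is why the 250 bases before its start site are shown, beside those of Eng, a general endothelial gene that did not pass the test. The sequences are RefSeq's for build GRCm38.p6, 5′ to 3′ on the strand of the gene, at chr16:18776597-18776846 on the plus strand for Cldn5 and chr2:32646345-32646594 on the plus strand for Eng. Both windows end at the base before the start of the gene in GENCODE. Capitals mark the core bound by ETS factors, GGAA or its reverse complement TTCC, and the CCAAT box, CCAAT or ATTGG.
Cldn5: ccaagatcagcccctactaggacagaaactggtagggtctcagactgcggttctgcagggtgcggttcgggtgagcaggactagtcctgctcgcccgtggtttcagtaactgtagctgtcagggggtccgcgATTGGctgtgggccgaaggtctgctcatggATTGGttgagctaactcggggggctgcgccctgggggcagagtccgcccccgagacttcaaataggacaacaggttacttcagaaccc
Eng: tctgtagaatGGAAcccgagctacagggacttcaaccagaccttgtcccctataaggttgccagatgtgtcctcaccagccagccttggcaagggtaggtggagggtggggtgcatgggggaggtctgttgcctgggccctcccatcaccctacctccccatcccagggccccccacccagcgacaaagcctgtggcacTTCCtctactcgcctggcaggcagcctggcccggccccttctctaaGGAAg
The Cldn5 window held 2 CCAAT boxes and no ETS core, and the Eng window 3 ETS cores and no CCAAT box. Of 32851 such windows in the RefSeq table, 93.5% held an ETS core, 33.9% held a CCAAT box and 10.1% held at least 2 of these boxes. The table had windows for 21 of the 34 genes, 27 windows in all, of which 25 held an ETS core and 10 a CCAAT box. RefSeq and GENCODE place some start sites differently, and 18 of the 27 windows reach into the gene as GENCODE has it. A match or its absence describes these letters only.

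Among all 34 genes Cldn5 was the 1 gene that rose with western diet past the threshold, and its transcript about doubled. Cldn5 (ENSMUSG00000041378) is a gene with a single annotated exon on chromosome 16, from 18776847 to 18778262 of GRCm38. The 4 control libraries held 8.96, 7.37, 9.69 and 8.25 TPM of Cldn5, and the 4 western diet libraries 16.6, 18.1, 15.7 and 18.7 TPM. Every western diet library lay above every control, and the spread within each group was small beside the distance between them. The log2 fold change in TPM + 1 was 0.94 (SE 0.10, 95% interval 0.71 to 1.17, n = 4 per group, limma adjusted p = 0.00527). Of the 10969 genes tested, 0.301% passed this threshold, 0.228% higher and 0.0729% lower in western diet. Cldn5 was already known to rise when these genes were chosen, so its test is a description.

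No other gene of the 33 tested passed, with limma adjusted p from 0.346 to 0.992. At an unadjusted limma p under 0.05 there were 5 genes, Cldn5, Sox18, Eng and Cd34 with the higher and Podxl with the lower level in western diet, which is 15.2% of 33 against 11.7% of all genes tested (9.2% higher and 2.51% lower). The groups did not overlap for 2 of the 33, Cldn5 and Podxl, against 6.6% of all genes (4.85% with the higher and 1.75% with the lower values in western diet). The fold change was above 0 for 23 of the 33, or 69.7%, and for 66.4% of all genes tested, whose median log2 fold change was 0.06. The median over the 33 was 0.095, and 17 of them lay above the median of all genes. The number above 0 depended on the setting. It was 17 under median-of-ratios or endothelial scaling and 18 under quantile normalization or without western diet replicate 2. It was 26 with library weights or without the 3 libraries high in the atrial gene Myl7, and 27 without control replicate 3. With a term for Y-linked transcripts it was 14, with a median over the 33 of -0.067. The median of all genes moved too. It was -0.069 with the Y-linked term, -0.0066, -0.011 and -0.010 under median-of-ratios, endothelial and quantile scaling, and 0.096 without control replicate 3. Apart from Cldn5, the shares as reported were close to those of the whole table.

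**Figure D1:**
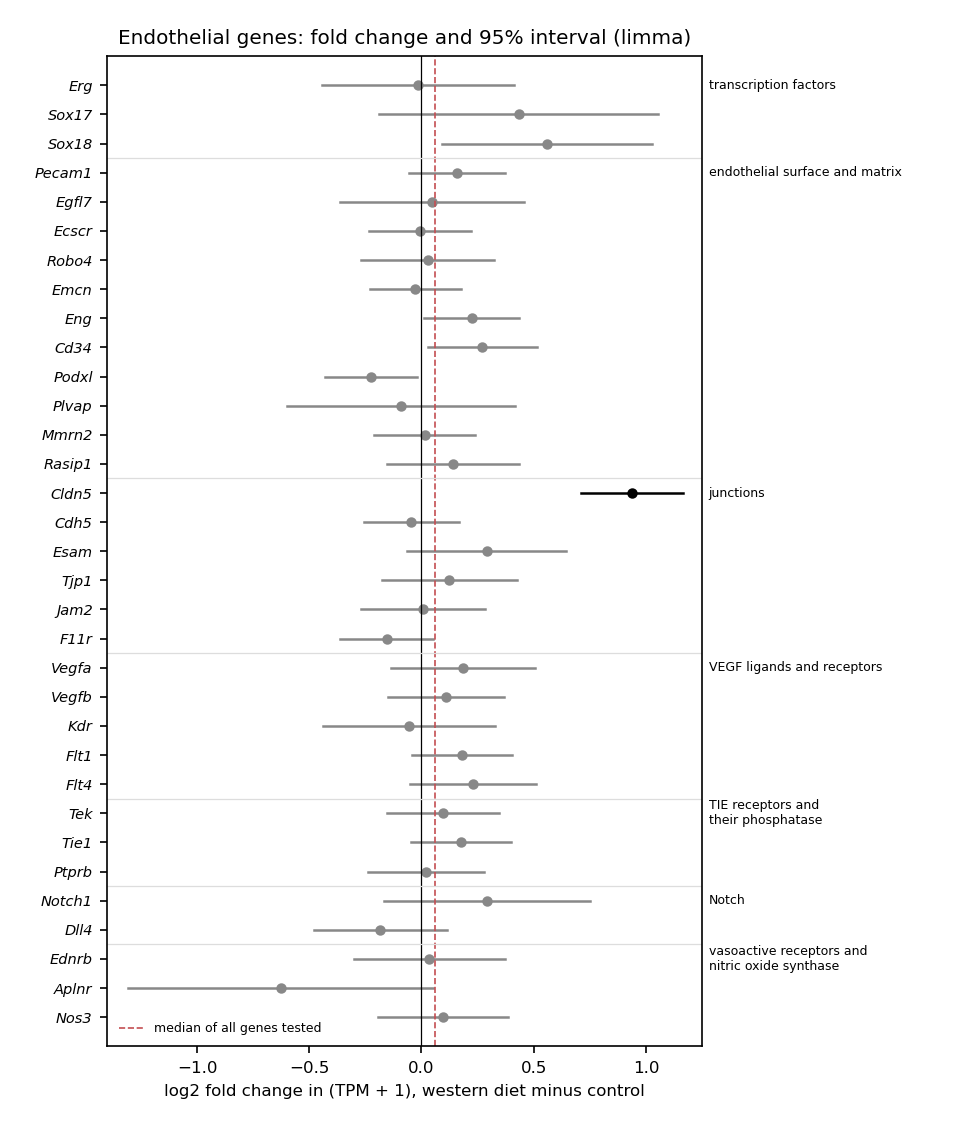
Log2 fold change in TPM + 1 (x axis, western diet minus control) of the 33 tested genes (y axis, grouped by role), with 95% intervals from limma; black marks adjusted p under 0.05 and the dashed line the median of all 10969 genes. Cldn5 stands at 0.94, and the other points lie between -0.63 (Aplnr) and 0.56 (Sox18).

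The level of general endothelial transcripts was set beside Cldn5, since a larger share of endothelial cells in a piece of heart would raise their transcripts together. In bulk tissue, fewer cells of a type and less RNA per cell cannot be told apart. The general markers were Pecam1, Cdh5, Tie1, Egfl7, Esam, Erg, Emcn, Robo4, Ecscr and Eng, and all 10 were present in every library, at 2.50 to 77.2 TPM. Pecam1, the adhesion molecule CD31, was at 41.7, 38.7, 48.2 and 42.3 TPM in control and 54.7, 47.2, 44.4 and 45.0 TPM in western diet. Cdh5, VE-cadherin, was at 40.9, 39.4, 43.6 and 45.6 TPM in control and 35.1, 41.9, 45.1 and 42.5 TPM in western diet. The groups overlapped for both genes, and their log2 fold changes were 0.16 (95% interval -0.06 to 0.37) for Pecam1 and -0.04 (-0.25 to 0.17) for Cdh5. Over the 10 markers the log2 fold changes ran from -0.04 to 0.29, and their 95% intervals from -0.44 to 0.65, which is below the lower end of the interval of Cldn5. These intervals are not adjusted for the number of genes.

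The marker level, taken as the mean of log2(TPM + 1) over the 10 markers, was 4.53 ± 0.080 in control and 4.61 ± 0.13 in western diet (SD, n = 4 per group), a difference of 0.083 that is below the pooled SD of 0.11. Cldn5 minus the marker level was -1.21, -1.36, -1.19 and -1.34 log2 units in the 4 controls and -0.50, -0.51, -0.49 and -0.17 in the 4 western diet libraries. The distance was thus smaller in every western diet library, and smallest in western diet replicate 4. The mean difference from the marker level was -1.28 ± 0.087 in control and -0.42 ± 0.16 in western diet, a shift of 0.855 with a pooled SD of 0.13. In direct terms, Cldn5 made up 20.2 ± 2.13% of the TPM of Cdh5 in control and 42.4 ± 5.30% in western diet, and 20.04 ± 1.06% and 36.5 ± 4.79% of the TPM of Pecam1. Set against 8 endothelial markers outside the 34 genes, the shift was 0.81. When each library was scaled to the geometric mean of the 10 markers and all genes were fitted again, Cldn5 passed with a log2 fold change of 0.86 (SE 0.09, limma adjusted p = 0.00732). It was then the only 1 of the 34 genes to pass, and 0.237% of all genes did. The 10 markers are among the 34 and set the scale, so this fit cannot show whether they changed together. Cldn5 was already known to rise and the marker level differed by only 0.083, so the rescaled test of Cldn5 is a description too.

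**Figure D2:**
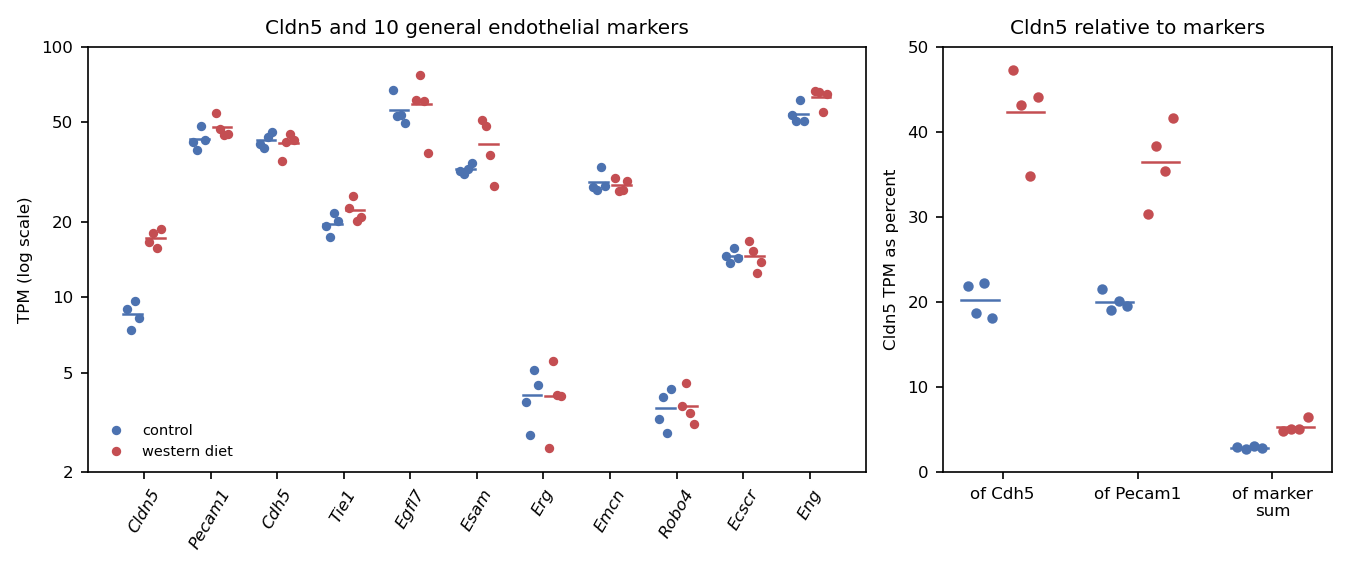
Left, TPM (log axis) of Cldn5 and the 10 general endothelial markers in each library, with bars at the group means. Right, the TPM of Cldn5 as a percent of Cdh5, of Pecam1 and of the summed markers; Cldn5 is at 18.1 to 22.2% of Cdh5 in the 4 controls and at 34.9 to 47.3% in the 4 western diet libraries, while the marker points of the groups overlap.

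Several differences between libraries touch the comparison. The Y-linked gene Eif2s3y ranged from 21.1 to 29.0 TPM over the controls. It stood at 22.3 TPM in western diet replicate 4 and reached no more than 0.0231 TPM in western diet replicates 1 to 3, in which diet and the lack of Y-linked transcripts cannot be told apart. A term for Y-linked transcripts leaves replicate 4 as the only western diet library set against the 4 controls, and that lone sample is assumed to vary like the others. Cldn5 then had a log2 fold change of 1.05 (SE 0.16, limma adjusted p = 0.0210), and 0.492% of all genes were past the threshold. Myl7, an atrial gene, was at 184 and 1403 TPM in control replicates 1 and 3 and at 335 TPM in western diet replicate 2, against 1.10 to 2.87 TPM elsewhere. Without those 3 libraries the log2 fold change of Cldn5 was 1.03 (SE 0.16), but it did not pass (limma adjusted p = 0.0559). Kidney markers moved with the group: 6 of them summed to 0.0142 to 0.685 TPM in control and 9.12 to 79.0 TPM in western diet, most of it Kap. Kap was at 9.58, 7.15, 13.4 and 72.1 TPM in western diet replicates 1 to 4, where Cldn5 was at 16.6, 18.1, 15.7 and 18.7 TPM. Replicate 4, with the most Kap, thus had the highest Cldn5 and also the highest Cldn5 relative to the marker level, -0.17 against -0.51 to -0.49 log2 units in the other western diet libraries. Nphs1, a marker of the podocytes of kidney, a cell type that makes Podxl, was at no more than 0.0982 TPM in any library. The part of kidney transcripts in the level of Cldn5 was not tested. Of 5 lung markers, Sftpc and Sftpa1 were listed at 0 in all 8 libraries and Ager was at no more than 0.214 TPM.

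**Figure D3:**
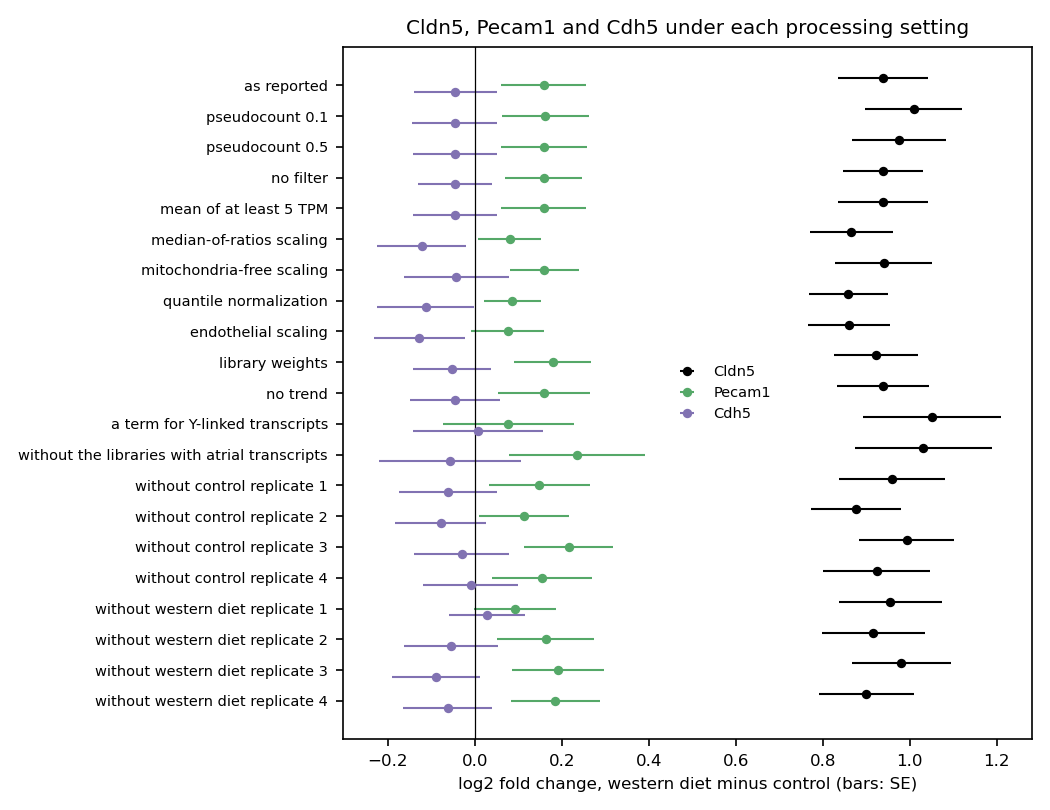
Log2 fold change (x axis, western diet minus control, bars show the SE) of Cldn5, Pecam1 and Cdh5 under each processing setting (y axis). Cldn5 lies between 0.86 and 1.05 in every setting, and Pecam1 and Cdh5 lie between -0.13 and 0.24.

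None of the other junction genes that were tested passed the threshold. Tjp1, the scaffold protein ZO-1 that binds claudins, was at 10.8, 10.7, 14.8 and 14.4 TPM in control and 11.8, 13.1, 16.8 and 13.8 TPM in western diet. The groups overlapped, with a log2 fold change of 0.12 (SE 0.14, 95% interval -0.18 to 0.43, limma adjusted p = 0.776). Ocln, occludin, was the gene too low to test, at 0.365, 0.270, 0.580 and 0.367 TPM in control and 0.372, 0.226, 0.299 and 0.274 TPM in western diet. The junctional adhesion molecules were at 47.2 ± 8.62 against 47.0 ± 4.42 TPM for Jam2 and at 21.7 ± 1.35 in control against 19.4 ± 1.80 TPM in western diet for F11r. Their log2 fold changes were 0.01 and -0.15. Esam, an adhesion molecule of endothelial tight junctions, was at 31.0 to 34.4 TPM in control and at 50.9, 48.3, 37.1 and 27.9 TPM in western diet replicates 1 to 4. Esam was thus above all controls in western diet replicates 1 to 3 and below them in replicate 4 (log2 fold change 0.29, 95% interval -0.06 to 0.65).

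Of 19 further tight junction genes, 11 were high enough to test, and none passed by limma over all genes or at an unadjusted p under 0.05. Their median log2 fold change was -0.08. The claudins Cldn1, Cldn3, Cldn10 and Cldn11 stayed at or below 0.160 TPM in every library, and Cldn12, at 4.45 to 5.33 TPM, and Cldn15, at 1.35 to 3.29 TPM, were the 2 others measured. Cldn5 was thus the most abundant of the 7 claudins examined in each library on the TPM scale, which corrects for length. Among the tight junction genes with the smallest p, Jam3 was at 10.6 ± 1.84 in control against 8.63 ± 1.18 TPM in western diet and Pard3, a polarity protein, at 8.69 ± 1.27 against 9.95 ± 0.614 TPM. Of 17 genes of the adherens junction and its catenins, 16 were tested and none passed by limma. Against 11.7% of all genes, 6.25% of the 16 had an unadjusted p under 0.05, which is 1 gene. That gene was Jup, plakoglobin, at 61.6 ± 3.12 in control against 71.96 ± 7.94 TPM in western diet. Ctnnd1, which encodes p120 catenin, was at 14.7 ± 2.35 against 17.9 ± 2.74 TPM, and Heg1, a partner of the CCM proteins, at 16.2 ± 2.75 against 18.8 ± 1.37 TPM.

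The transcription factors of endothelial identity did not pass either. Sox18, a SOX factor of developing vessels and lymphatics, was at 10.9, 8.98, 11.8 and 11.8 TPM in control and 14.2, 27.5, 16.03 and 11.3 TPM in western diet. Western diet replicate 2 was far above the others and replicate 4 lay within the controls (log2 fold change 0.56, SE 0.21, limma adjusted p = 0.346). With the Y-linked term, which rests on replicate 4, the log2 fold change of Sox18 was 0.064. Over 20 alternatives that of Sox18 ran from 0.064 to 0.72. Its relative Sox17, which acts in arteries, was at 2.02 to 3.32 TPM in control and at 7.43, 5.38, 2.31 and 2.20 TPM in western diet replicates 1 to 4. Replicates 1 and 2 were above all controls and replicates 3 and 4 were not. Erg, the ETS factor that maintains endothelial genes, was at 4.05 ± 0.976 in control and 4.04 ± 1.24 TPM in western diet.

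Among the surface and matrix genes, Eng and Cd34 had the higher and Podxl the lower mean in western diet, none of them past the threshold. Eng, endoglin, a co-receptor of the TGF-beta family, was at 53.3, 50.6, 61.3 and 50.8 TPM in control and 67.0, 66.1, 54.9 and 65.02 TPM in western diet. Western diet replicate 3 and control replicate 3 overlapped (log2 fold change 0.22, SE 0.10, limma adjusted p = 0.403). Under endothelial scaling the log2 fold change of Eng was 0.14, and over 20 alternatives it ran from 0.14 to 0.29. Cd34, a sialomucin of capillary endothelium and progenitor cells, was at 40.2, 38.6, 51.7 and 43.2 TPM in control and 51.8, 56.7, 56.1 and 45.4 TPM in western diet. The highest control lay among the western diet values (log2 fold change 0.27, SE 0.11, limma adjusted p = 0.377). Fitted with the Y-linked term, Cd34 was at 0.071 on the log2 scale, and over 20 alternatives it ran from 0.071 to 0.36. Podxl, podocalyxin, a related sialomucin, was at 35.1, 33.7, 38.0 and 35.3 TPM in control and 25.9, 30.5, 31.8 and 33.0 TPM in western diet. The groups did not overlap, but the gap between the nearest libraries was small (log2 fold change -0.23, SE 0.09, limma adjusted p = 0.383). It was -0.10 with the Y-linked term and -0.16 without western diet replicate 1. Over 20 alternatives the log2 fold change of Podxl ran from -0.31 to -0.10.

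The remaining surface and matrix genes overlapped between the groups, with log2 fold changes from -0.09 (Plvap) to 0.14 (Rasip1). Their 95% intervals were widest for Plvap, at -0.60 to 0.42, and Egfl7, at -0.36 to 0.46. Ecscr, a chemotaxis receptor of endothelium, was at 14.6 ± 0.809 in control and 14.6 ± 1.88 TPM in western diet. Emcn, endomucin of capillaries and veins, was at 28.8 ± 2.87 against 28.2 ± 1.70 TPM, and Mmrn2, a matrix protein of vessels, at 11.6 ± 1.54 against 11.7 ± 0.430 TPM. Robo4, a guidance receptor of endothelium, was at 3.60 ± 0.657 against 3.68 ± 0.612 TPM. Egfl7, a secreted factor of endothelium, was at 55.9 ± 8.00 in control and 59.3 ± 16.3 TPM in western diet, and its lowest value, 37.6 TPM, was in western diet replicate 4. Rasip1, needed for vessel lumens, was at 8.61 ± 0.564 against 9.73 ± 2.00 TPM. Plvap, which forms the diaphragms of fenestrae, was at 6.25 ± 2.60 in control against 5.69 ± 1.66 TPM in western diet. The highest Plvap, 10.1 TPM, was in control replicate 3, the library with the most Myl7, and the part of atrial tissue in it was not tested.

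The ligands and receptors of the VEGF system did not pass. Vegfa was at 87.7, 77.5, 86.3 and 90.5 TPM in control and 81.7, 127, 110.3 and 78.05 TPM in western diet. Western diet replicates 2 and 3 were above all controls, while replicates 1 and 4 were not (log2 fold change 0.19, SE 0.14, 95% interval -0.13 to 0.50). Vegfb, which acts through Flt1, was the most abundant of the 34 genes, at 169 ± 5.74 in control and 185 ± 32.7 TPM in western diet. Kdr, the main signalling receptor of VEGF-A, was at 33.5, 28.6, 38.4 and 36.0 TPM in control and 22.5, 30.4, 41.6 and 39.8 TPM in western diet, on both sides of the controls (log2 fold change -0.05, 95% interval -0.44 to 0.33). Flt1, which binds VEGF-A and VEGF-B and can act as a decoy, was at 15.7, 14.95, 18.8 and 16.4 TPM in control and 19.9, 20.7, 17.4 and 17.1 TPM in western diet. Its groups overlapped through control replicate 3 (log2 fold change 0.18, 95% interval -0.04 to 0.40). Flt4, the receptor of VEGF-C, was at 3.11 ± 0.456 against 3.83 ± 0.619 TPM.

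Of 16 further genes of the VEGF and angiopoietin systems, all 16 were tested and none passed by limma. Their median log2 fold change was -0.02. Against 11.7% of all genes, 6.25% of the 16 had an unadjusted p under 0.05, which is 1 gene. That gene was Angptl4, a secreted inhibitor of lipoprotein lipase that responds to fatty acids, at 2.10 ± 0.918 in control and 8.43 ± 4.79 TPM in western diet (log2 fold change 1.54, SE 0.29, limma adjusted p = 0.0630). It passed without western diet replicate 3, where it was highest at 15.5 TPM (limma adjusted p = 0.0387). Angpt2, the antagonist ligand of TIE2, was at 1.24 ± 0.415 against 1.83 ± 0.444 TPM, and Svep1, a matrix protein, at 1.08 ± 0.134 against 1.39 ± 0.264 TPM. The TIE receptors and their phosphatase did not pass. The log2 fold change was 0.17 for Tie1 (95% interval -0.05 to 0.40) and 0.02 for Ptprb. Tek, which encodes TIE2, was at 10.7, 10.3, 13.97 and 11.9 TPM in control and 14.1, 13.02, 11.9 and 11.3 TPM in western diet (log2 fold change 0.10, 95% interval -0.15 to 0.35). Tie1 was at 19.7 ± 1.85 in control against 22.3 ± 2.26 TPM in western diet, and Ptprb, the phosphatase VE-PTP, at 9.98 ± 1.39 against 10.1 ± 1.13 TPM.

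Notch1 was at 4.68 ± 1.45 in control and 5.97 ± 1.80 TPM in western diet, with 7.15 and 7.86 TPM in western diet replicates 1 and 2 and 4.71 and 4.18 TPM in replicates 3 and 4. Control replicate 3, at 6.70 TPM, was also high. Its ligand Dll4, of arterial and sprouting cells, was at 7.02 ± 0.402 against 6.16 ± 1.37 TPM. Of 18 further Notch and arteriovenous genes none passed by limma, with a median log2 fold change of 0.05. An unadjusted p under 0.05 was seen for 1 of them, or 5.56% against 11.7% of all genes. Notch4, an endothelial Notch receptor, was at 4.22 ± 0.775 in control against 5.92 ± 1.64 TPM in western diet, the Notch target Hey1 at 3.79 ± 0.855 against 5.30 ± 1.43 TPM and the Notch effector Rbpj at 5.35 ± 0.973 against 6.66 ± 0.919 TPM.

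Of the vasoactive genes, Nos3 and Aplnr were uneven within the western diet group. Nos3, endothelial nitric oxide synthase, was at 6.73, 6.54, 7.03 and 7.21 TPM in control and 8.66, 9.08, 6.41 and 5.93 TPM in western diet. Replicates 1 and 2 were above all controls and replicates 3 and 4 below them (log2 fold change 0.10, SE 0.13, limma adjusted p = 0.832). Aplnr, the apelin receptor, was at 9.17 to 12.5 TPM in control and at 2.66, 6.44, 12.3 and 8.63 TPM in western diet replicates 1 to 4 (log2 fold change -0.63, SE 0.31, limma adjusted p = 0.464). Ednrb, the endothelin B receptor, was at 3.52 ± 0.727 in control and 3.65 ± 0.798 TPM in western diet. Of 16 further genes of endothelin, apelin, angiotensin and nitric oxide signalling, 11 were tested and none passed by limma, while 3 had an unadjusted p under 0.05. That is 27.3% of the 11, against 11.7% of all genes. The ligand Edn3 was at 1.70 ± 0.314 in control against 3.60 ± 1.31 TPM in western diet and passed only when western diet replicate 1 was left out (limma adjusted p = 0.0456). The endothelin A receptor gene Ednra was at 7.53 ± 1.44 against 10.4 ± 2.12 TPM, and Apln, the apelin ligand, at 5.48 ± 0.357 against 4.24 ± 0.9504 TPM.

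Of 18 markers of endothelium outside the 34 genes, none passed by limma and 3 had an unadjusted p under 0.05, which is 16.7% against 11.7% of all genes, with a median log2 fold change of 0.05. Their log2 fold changes ranged from -0.37 (Myct1) to 0.68 (S1pr1). The groups did not overlap for 3 of the 18, or 16.7%, 2 higher and 1 lower. Over all genes this share was 6.6% (4.85% higher and 1.75% lower). S1pr1, the receptor of sphingosine 1-phosphate, was at 13.4 to 17.2 TPM in control and at 38.7, 31.2, 17.7 and 17.3 TPM in western diet replicates 1 to 4. Replicates 1 and 2 stood apart, and replicates 3 and 4 lay just above the highest control. The 95% interval of its log2 fold change, 0.18 to 1.18, overlaps that of Cldn5. Myct1 was at 7.90 ± 0.111 in control against 6.04 ± 1.71 TPM in western diet, and Gata2 at 2.87 ± 0.128 against 4.12 ± 1.29 TPM. Of 12 capillary genes 11 were tested and none passed by limma. Against 11.7% of all genes, 27.3% of the 11 had an unadjusted p under 0.05, which is 3 genes. These were Sgk1, a kinase induced by corticosteroids, at 18.2 ± 4.11 in control against 30.2 ± 6.78 TPM in western diet, Gpihbp1, which carries lipoprotein lipase into capillaries, at 67.8 ± 2.33 against 91.9 ± 20.6 TPM, and the fatty acid transporter Cd36 at 308 ± 28.2 against 360.4 ± 29.5 TPM. Of 18 genes of shear response and activation 14 were tested, none passed by limma and 5 had an unadjusted p under 0.05, all higher, which is 35.7% against 9.2% of all genes higher at that threshold. Their median log2 fold change was 0.24. The shear-induced factor Klf2 was at 11.4 to 15.2 TPM in control and at 38.1, 28.6, 11.3 and 18.9 TPM in western diet replicates 1 to 4, so replicate 3 lay below the controls. Id1, a target of BMP signalling, was at 24.6 ± 3.40 in control against 40.9 ± 16.4 TPM in western diet, and Icam1, a leukocyte adhesion molecule, at 5.01 ± 0.954 against 7.35 ± 2.37 TPM. In western diet replicates 1 to 4 Id1 was at 49.2, 59.96, 26.9 and 27.5 TPM. Replicates 3 and 4 thus lay within the control range of 20.5 to 28.8 TPM. For each of the 5 genes, western diet replicates 1 and 2 lay above all controls and replicate 3 did not.

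Across libraries, the 33 tested genes had their highest values most often in western diet replicate 2, with 14 genes, followed by control replicate 3 with 8 and western diet replicate 1 with 7. Of all genes tested, 30.04%, 18.8% and 24.5% were highest in these libraries. The lowest values fell most often in control replicate 2, with 14 of the 33 genes against 36.6% of all genes. Cldn5 was highest in western diet replicate 4, the library with the highest value for no other gene of the 33. The SD of log2(TPM + 1) was larger in western diet than in control for 22 of the 33 genes, or 66.7%, against 61.9% of all genes. Within the western diet group it was largest for Aplnr (0.79), Sox17 (0.70) and Sox18 (0.51), and for Cldn5 it was 0.11.

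**Figure D4:**
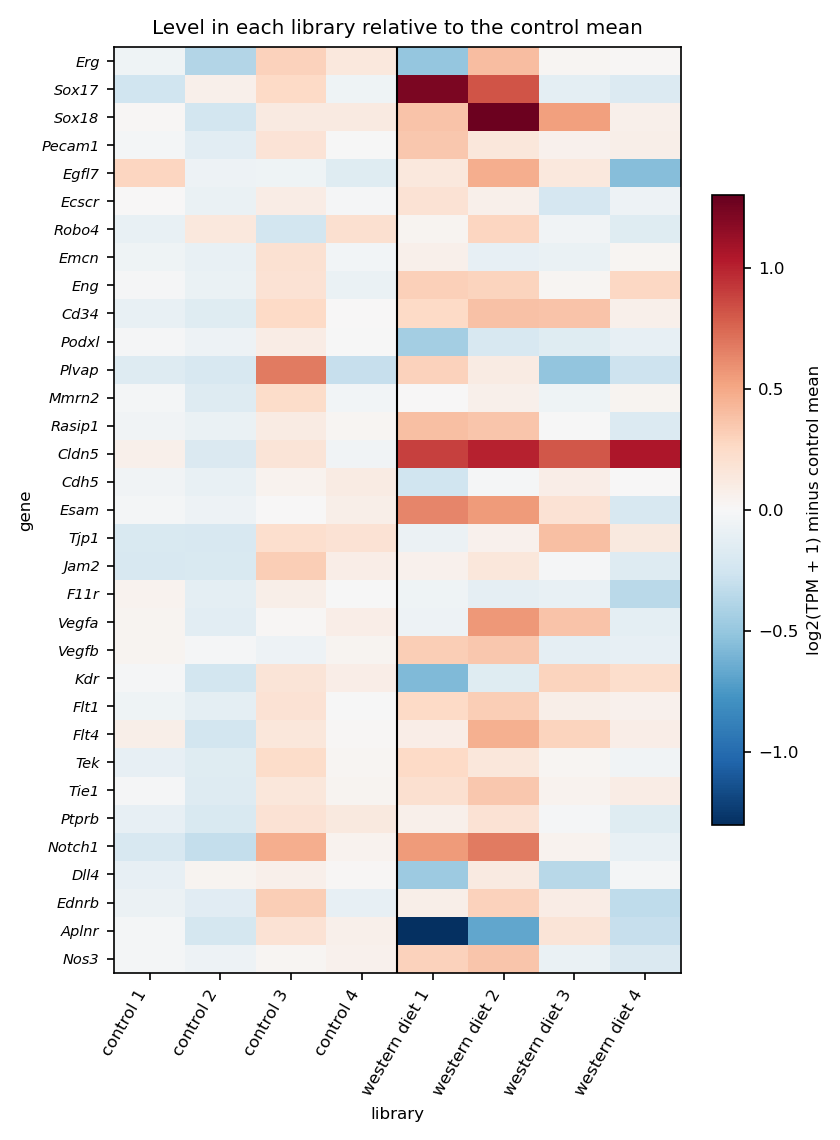
Level of each of the 33 tested genes (y axis) in each library (x axis) as log2(TPM + 1) minus the control mean, red for higher and blue for lower; colours saturate at the ends of the scale, which Aplnr in western diet replicate 1 exceeds. Cldn5 is red in all 4 western diet libraries, while Sox17 and Nos3 are red in western diet replicates 1 and 2 and not in replicates 3 and 4, and Aplnr is blue in replicates 1, 2 and 4.

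Heart tissue markers were checked against the label. All 6 cardiomyocyte markers were present, with Myh6 at 963 to 1748 TPM and Tnnt2 at 5968 to 8164 TPM, and none passed by limma or at an unadjusted p under 0.05. Among 7 markers of smooth muscle and pericytes, whose cells share vessels with endothelium, 5 had an unadjusted p under 0.05, 4 of them lower and 1 higher in western diet. That is 71.4% of the 7, against 11.7% of all genes (9.2% higher and 2.51% lower). Of the 5 markers, 1 passed, Tagln (limma adjusted p = 0.0169). It was at 16.2 to 21.1 TPM in control and 7.92 to 10.9 TPM in western diet. The other lower genes were Myh11 (log2 fold change -0.53), Pdgfrb (-0.33) and Kcnj8 (-0.52). Their limma adjusted p were 0.2196, 0.188 and 0.208. Groups did not overlap for 3 lower genes, Tagln, Pdgfrb and Kcnj8, and for 1 higher gene. Over all genes that held for 1.75% lower and 4.85% higher. The higher gene was Acta2, which did not pass, at 26.3 to 39.2 TPM in control and 47.9 to 117 TPM in western diet. Fibroblast, macrophage, lymphatic and platelet lists had no gene past the threshold by limma, with 1, 1, 1 and 0 genes at an unadjusted p under 0.05. The first 3 lists had 5 tested genes each, so 1 gene is 20%, against 11.7% of all genes. The fibroblast collagens Col1a1 and Col3a1 were at 10.5 ± 1.54 and 65.2 ± 11.7 TPM in control against 14.6 ± 2.33 and 74.6 ± 13.8 TPM in western diet. The macrophage receptors Adgre1 and Csf1r were at 2.96 ± 0.719 and 8.67 ± 1.43 TPM in control against 3.86 ± 0.774 and 9.43 ± 1.93 TPM in western diet, and the platelet gene Pf4 at 19.5 ± 1.45 against 17.5 ± 5.37 TPM. The atrial gene Myl4 was at 2.00 to 1023 TPM in control and 2.65 to 223 TPM in western diet. Red cell markers summed to 1598 to 2963 TPM in control and reached 9056 TPM in western diet replicate 1, where Hbb-bs was at 7097 and Hba-a1 at 1912 TPM. Their part in the values above was not tested. Exons of 9 of the 34 genes share bases with another annotated gene, 13 of the 16 overlaps being on the opposite strand, and Cldn5 has none; whether strand was used in the quantification is not given in the sources used here.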

How the data were processed

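Groups follow GEO's labels, and replicates are numbered in accession order, which pairs nothing. The authors deposited a table of TPM per Ensembl gene for 8 heart libraries. Per the labels' protocols, RNA came from a Qiagen kit and libraries from a stranded TruSeq kit with polyadenylated RNA pulled down. Kallisto, DESeq2 and GRCm38 appear in the submitters' processing notes, with neither version nor role. The TPM columns summed to 941318 to 953448, and depth is unknown, so no counting intervals are given.

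Symbols and coordinates (1-based) came from GENCODE vM21, which named 29811 of 30153 identifiers. The 10969 genes with 1 TPM or more in 4 or more libraries were fitted by limma 3.58.1 (R 4.3.3) after taking log2(TPM + 1) (group as the only term, intensity trend, two-sided, Benjamini-Hochberg over all genes, threshold 0.05). No count test was run, since TPM are not counts. Fold changes on this scale understate those of low genes. In simulated data with 200 of 10969 genes changed, averaged over 10 runs, limma recovered 92.0% of 2-fold and 99.3% of 4-fold changes in TPM + 1, and 4.86% of calls were false. The simulated noise was drawn separately for each gene and library, without differences that many genes of a library share. The real libraries differ in Y-linked, atrial and kidney transcripts, so these rates need not hold for them. The members, the 8 lists of related genes, the 12 lists of other cell types and the alternative settings were chosen with earlier results of these data known. Values in every library were given for members with an unadjusted p under 0.05 or groups that do not overlap and for a fixed set (Cldn5, Pecam1, Cdh5, Kdr, Flt1, Tek, Vegfa, Nos3, Tjp1, Ocln). From each related list the text names the 3 genes of smallest p, except for a gene that is not reported here, and from lists of other cells the first 2 tested; the other claudins, Tagln, Pdgfrb, Kcnj8, Nphs1, Eif2s3y, the lung genes and values in single libraries were added after their values were seen. Tables and figures used pandas 2.3.3 and matplotlib 3.10.9 under Python 3.11.15.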

Additional observations from a re-analysis of the deposited data

Results flagged for a closer look

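Of 180 groups of 4 libraries examined for the genes named and the marker level, 18 had a library whose gap to the nearest other was, as a share of the group's range, above Dixon's 95% critical value, where chance flags about 1 in 20 groups. The distance of Cldn5 from the general endothelial marker level was -0.174 log2 units in western diet replicate 4, against -0.515 to -0.486 in the rest of its group. Western diet replicate 4 also stood apart for Kap, with 72.1 TPM against 7.15 to 13.4 TPM, and for Eif2s3y, with 22.3 TPM against 0 to 0.0231 TPM. Western diet replicate 3 had 54.9 TPM of Eng, against 65.02 to 67.0 TPM in the rest of its group, and 15.5 TPM of Angptl4, against 5.399 to 6.94 TPM. Western diet replicate 1 had 10.1 TPM of Pdgfrb against 11.9 to 12.1 TPM, 1.496 TPM of Reln against 0.709 to 0.753 TPM and 25.5 TPM of Pf4 against 14.4 to 15.1 TPM. Western diet replicate 2 had 335 TPM of Myl7 against 1.47 to 2.63 TPM and 223 TPM of Myl4 against 2.65 to 3.65 TPM. Control replicate 3 held the most Myl7, 1403 TPM against 1.10 to 184 TPM in the other controls, and the most Myl4, 1023 TPM against 2.00 to 158.5 TPM. It had 10.1 TPM of Plvap against 4.64 to 5.21 TPM in the other controls, 4.61 TPM of Ednrb against 3.06 to 3.25 TPM and 4.65 TPM of Lyve1 against 3.13 to 3.39 TPM. At levels near 0, Cldn3 was listed at 0 TPM in control replicate 4 against 0.0338 to 0.0385 TPM, and control replicate 2 had 0.0455 TPM of Nphs1 against 0 in the other controls and 0.214 TPM of Ager against 0.117 to 0.122 TPM.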

How the results depend on the processing

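No paired analysis was possible because the labels give no replicate numbers that the groups share. Cldn5 kept its direction in 20 of 20 alternatives, with log2 fold changes of 0.858 to 1.05 and limma adjusted p of 0.00194 to 0.0559, and was past the threshold in 19, 1 of which (the Y-linked term) rests on a single western diet library. Without the 3 libraries with atrial transcripts it was at 1.03 and did not pass, which left 0 of the 34 genes past the threshold; that fit compares 2 controls with 3 western diet libraries, and 7 of all genes passed. The other genes of the 34 passed in no alternative. The shift of Cldn5 relative to the markers was 0.773 to 0.962 over 14 alternatives and the difference in marker level 0.0087 to 0.13. Each was within 1 SD of the reported value. The Y-linked term was not among these 14. In western diet replicate 4, on which that term rests, Cldn5 minus the marker level was -0.174, against a control mean of -1.28. The marker level there was 4.48, against a control mean of 4.53. Over all genes, 25 passed higher and 8 lower as reported, 3 and 2 with no filter on low genes, 88 and 20 with library weights, 31 and 18 under median-of-ratios scaling and 40 and 21 under quantile normalization; leaving out single libraries gave from 5 and 4 (without control replicate 2) to 71 and 19 (without western diet replicate 4). Scaling moved the median of all genes from 0.0614 to between -0.011 and 0.063. Of the related genes 0 passed as reported and 0 to 1 when single libraries were left out (Edn3 without western diet replicate 1, Angptl4 without western diet replicate 3). Besides Cldn5, 55 genes were followed singly through the settings, namely the other tested genes of the 34 and the named related genes. None of these 55 was past the threshold as reported. Of them, 23 changed sign in at least 1 alternative, and the cause was not tested. Genes of other cell types, such as Tagln and Kap, were not followed in this way. Fitting the Y-linked term gave log2 fold changes of 0.017 for Erg, -0.18 for Sox17, -0.55 for Egfl7, -0.16 for Robo4, 0.026 for Emcn, -0.17 for Rasip1, 0.0074 for Cdh5, -0.21 for Esam, -0.17 for Jam2, -0.13 for Vegfa, -0.10 for Vegfb, 0.22 for Kdr, -0.045 for Tek, -0.16 for Ptprb, -0.10 for Notch1, -0.33 for Ednrb, -0.18 for Nos3, -0.048 for Ctnnd1, -0.032 for Hey1 and -0.015 for Ednra. Without the atrial libraries it was 0.020 for Ecscr, -0.23 for Robo4, 0.070 for Emcn, 0.098 for Plvap and 0.056 for Kdr. With library weights it was 0.010 for Erg, 0.015 for Ecscr and 0.042 for Plvap. Under median-of-ratios, endothelial and quantile scaling it was -0.038, -0.042 and -0.051 for Robo4, -0.059, -0.064 and -0.072 for Mmrn2, -0.072, -0.077 and -0.063 for Jam2, -0.051, -0.056 and -0.065 for Ptprb and -0.029, -0.033 and -0.048 for Ednrb, and for Egfl7 -0.031 and -0.036 under the first 2. Leaving out single libraries gave -0.064 to 0.11 for Jam2, -0.15 to 0.15 for Erg, -0.071 to 0.065 for Ecscr, -0.22 to 0.13 for Plvap, -0.089 to 0.028 for Cdh5, -0.17 to 0.12 for Kdr, -0.092 to 0.25 for Egfl7, -0.056 to 0.098 for Robo4, -0.053 to 0.16 for Ednrb, -0.060 to 0.039 for Emcn, -0.043 to 0.093 for Mmrn2 and -0.047 to 0.083 for Ptprb.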

Other observations

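Lyve1, a receptor of lymphatic endothelium that some macrophages also carry, was at 3.14, 3.13, 4.65 and 3.39 TPM in control and 10.8, 6.22, 4.74 and 5.10 TPM in western diet. The groups did not overlap, and the gene did not pass (limma adjusted p = 0.215). Pdpn and Reln, other lymphatic genes, were at 0.649 to 1.08 TPM in control against 0.981 to 1.305 TPM in western diet and at 1.11 to 1.41 against 0.709 to 1.496 TPM. Prox1, the lymphatic transcription factor, which heart muscle cells also express, was at 6.15 to 9.63 TPM in control and 7.59 to 10.5 TPM in western diet. Wt1, a factor of epicardium and of some endothelial cells, was at 0.816 to 1.71 TPM in control and 1.89 to 4.15 TPM in western diet (limma adjusted p = 0.165). These genes were picked after their values were seen.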
